A study of Mus musculus with 4 samples.

Results

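T cell receptor gene segments were the V, D, J and C segments of the Tra, Trb, Trg and Trd loci in the gene count table of mouse CD8+ T cells. A segment was a member when its biotype in the table began with TR_, was not a pseudogene, and had at least 10 counts summed over the 4 samples. This gave 159 of 226 such segments, out of 54532 genes in the table, and left 67 segments under the threshold. Members were 113 of the alpha locus (72 V, 40 J and 1 C), 39 of the beta locus (22 V, 2 D, 13 J and 2 C), 5 of the gamma locus (2 V and 3 C) and 2 of the delta locus (1 V and 1 C). The summed count chose the members, so their presence in the list is not a result.

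Naive CD8+ T cells were taken from the spleen of C57BL/6 mice with magnetic beads and cultured for 48 h with antibodies to CD3 and CD28. In 2 samples (IFNα 1 and IFNα 2) IFNα, a type I interferon, was present at 2000 U/ml, and in 2 control samples (control 1 and control 2) the same stimulation was given without it. Antibody stimulation was thus shared by both groups, and the study's methods give an age for its mice in general but no number of animals per sample. Nothing says that samples of a group came from separate animals or cultures, so p-values here describe the spread among these 4 samples alone, and that spread may be technical. The samples were bulk RNA, in which fewer cells of a type and less RNA per cell cannot be told apart.

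Each T cell builds its receptor genes by recombination, in which the RAG proteins cut the DNA. A V segment is then joined to a J segment, with a D segment between them in the beta and delta loci. The rearranged gene is transcribed from the V segment through the J segment, and splicing removes the stretch between the joined J segment and the C segment. Alpha and beta chains form the receptor of most CD8+ T cells, while gamma and delta chains form that of a separate lineage. Each V segment carries most of the antigen-binding domain, D and J segments shape its most variable loop, and C segments encode the part that anchors the chain in the membrane beside the CD3 proteins.

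Total counts per sample were 16096121 to 17676062, and member segments took 0.140% and 0.145% of them in IFNα 1 and 2, against 0.199% and 0.159% in control 1 and 2. Control 1 stood apart from the other 3 samples in these segments, as the values below show, and the summed levels are given with and without it. Control 1 also stood apart in other kinds of RNA. Genes of the annotation class TEC had 24694 and 24626 counts in IFNα 1 and 2, against 14494 and 24876 in control 1 and 2, and sense-intronic RNAs had 3360 and 3268 counts with IFNα, against 2476 and 3703 in the controls. Genes outside the receptor loci of at most 66 bases, the longest J member, had 645 and 689 counts with IFNα, against 725 and 750 in the controls. Between the controls, the median log2 ratio of control 2 to control 1 ran from -0.37 to 0.38 over 5 equal bins of gene length, shortest to longest.

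Sequences of J segments are shown first, because this class differed most between samples and because its members are short, 46 to 66 bases. They are from the GENCODE M21 transcripts of GRCm38, whose positions matched the table's for all 159 members, and all lie on the plus strand. Capitals mark TTT, TTC or TGG followed by GGN, NNN and GGN, which encodes phenylalanine or tryptophan, glycine, any residue and glycine, the signature of a J segment. In order they lie at chr14:54217836-54217901, chr14:54211470-54211528, chr14:54204422-54204481, chr6:41533864-41533911, chr6:41535084-41535133 and chr6:41543810-41543856.
Traj2: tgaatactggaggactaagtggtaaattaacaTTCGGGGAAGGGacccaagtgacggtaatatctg
Traj7: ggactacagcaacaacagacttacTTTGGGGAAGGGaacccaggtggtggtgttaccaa
Traj15: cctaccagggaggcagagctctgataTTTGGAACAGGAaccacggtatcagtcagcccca
Trbj1-1: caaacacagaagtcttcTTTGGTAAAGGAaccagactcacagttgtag
Trbj1-5: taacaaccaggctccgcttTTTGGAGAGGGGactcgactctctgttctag
Trbj2-7: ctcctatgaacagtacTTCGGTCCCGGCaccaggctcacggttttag
The motif was searched on the coding strand, with overlapping matches allowed, and stood in 35 of 40 Traj members and 11 of 13 Trbj members. It was in 9 of the 11 Traj segments under the count threshold, in 1 of 9 Traj pseudogenes, and in the last 60 bases of 0 of 178 V segments. Traj3, the Traj member of highest count in both IFNα samples, had no match, which says only that these letters are not in its annotated sequence.

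Constant segments carried most of the counts and check the label of the cells. Trac (ENSMUSG00000076928, chr14:54220521-54224206) had 277 and 295 CPM (counts scaled by TMM-adjusted library totals) in IFNα 1 and 2, against 374 and 296 CPM in control 1 and 2. Trbc1 (ENSMUSG00000076490, chr6:41538218-41539881) had 248 and 251 CPM with IFNα, against 406 and 274 CPM in the controls, and Trbc2 (ENSMUSG00000076498, chr6:41546730-41548352) had 461 and 490 CPM, against 751 and 496 CPM. In all 3 genes control 1 was highest, control 2 was next, and the groups did not overlap, though control 2 was close to IFNα 2. The log2 fold changes of IFNα over control were -0.23 (SE 0.16, adjusted p = 0.623) for Trac, -0.45 (SE 0.21, adjusted p = 0.505) for Trbc1 and -0.39 (SE 0.22, adjusted p = 0.573) for Trbc2 in the quasi-likelihood test of edgeR (Benjamini-Hochberg over all genes tested), so none passed. Without control 1 the same 3 log2 fold changes were -0.045, -0.13 and -0.058, and without control 2 they were -0.38, -0.70 and -0.66, all under the threshold of 1 in size. With an offset for gene length they were -0.0082, -0.20 and -0.14. A fit that leaves out a control holds no spread between controls, so only its sizes are given.

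Trbc1 and Trbc2 encode nearly the same protein domain downstream of separate D and J clusters, and their balance was close in the 4 samples. Trbc1 made up 35.0% and 33.9% of the counts of both in IFNα 1 and 2, against 35.1% and 35.6% in control 1 and 2. The Wilson 95% intervals ran from 34.1 to 35.9% and from 33.1 to 34.7% with IFNα, against 34.4 to 35.8% and 34.8 to 36.4% in the controls. These intervals, like others given here, cover counting error only. Per kilobase of annotated length Trbc2 had 666 and 708 CPM with IFNα, against 1086 and 717 CPM in the controls, and Trac had 296 and 316 CPM, against 400 and 316 CPM. Genes that share near-identical sequence can share reads, and the sources used here do not say how such reads were counted.

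Summed by locus, beta segments had the highest level and gamma and delta segments were lowest. The 39 Trb members summed to 1011 and 1070 CPM in IFNα 1 and 2, against 1521 and 1114 CPM in control 1 and 2, a log2 ratio of means of -0.34. The 113 Tra members summed to 399 and 412 CPM with IFNα, against 474 and 419 CPM in the controls, a log2 ratio of -0.14. Both loci were below both controls, and both gave p = 0.333 in a two-sided exact permutation test, the smallest value that 2 samples against 2 can give. Without control 1 the log2 ratios were -0.10 for Trb and -0.05 for Tra, and without control 2 they were -0.55 and -0.23. Split by class, the level in control 1 was high for C and V segments and low for J segments.

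**Figure D1:**
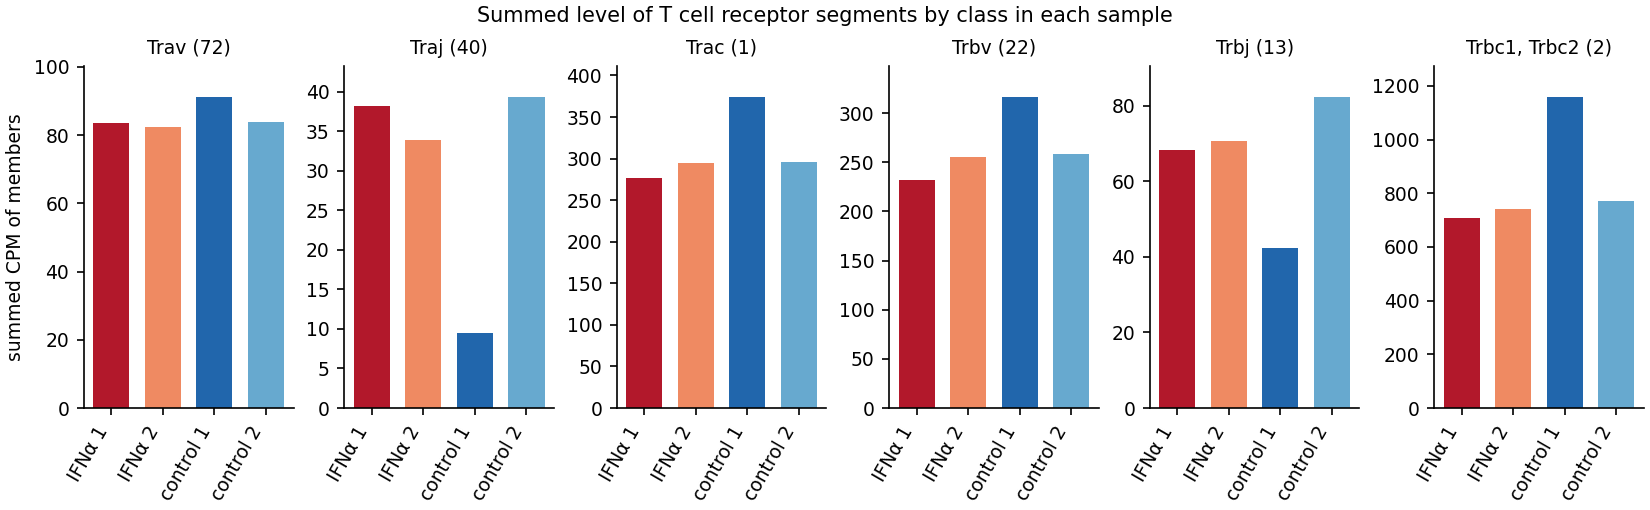
Bars show the summed CPM of alpha and beta members by class in IFNα 1, IFNα 2, control 1 and control 2, with the number of segments in brackets and 1 bar per sample. Control 1 was highest for Trac, Trbc1 with Trbc2, Trav and Trbv, and lowest for Traj (9.54 CPM, against 34.0 to 39.3 CPM in the other samples) and Trbj (42.5 CPM, against 68.2 to 82.3 CPM).

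No member segment passed the test between IFNα and control. Of the 159 members 119 passed the filter on low counts, and 0 were called higher and 0 lower in edgeR's quasi-likelihood test (thresholds were 0.05 for adjusted p and 1 for the size of log2 fold change). Among all 14417 genes tested, 1.28% were called higher and 0.139% lower. At an unadjusted p under 0.05, 2 members were higher and 5 lower, against 5.72% and 5.55% of all genes tested, and DESeq2 gave 0 and 2. Both IFNα samples were above both controls for 14 tested members and below both for 27, where the shares over all genes were 23.1% and 23.4%. Of the 119, 79 reached 0.583 CPM, the level the filter sets, in all samples, 22 reached it in both IFNα samples but in fewer than 2 controls, and 10 in both controls but in fewer than 2 IFNα samples. With no filter the median log2 fold change of the 159 members was 0.00, with 80 positive and 79 negative, and the median over 25013 genes was also 0.00.

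Joining segments of the alpha locus were low in control 1. The 40 Traj members summed to 38.3 and 34.0 CPM in IFNα 1 and 2, against 9.54 and 39.3 CPM in control 1 and 2. Control 1 was the lowest of the 4 samples in 35 of 40, while across all tested genes it was the lowest in 37.4%. Traj15 had 21 and 21 counts in IFNα 1 and 2, against 0 and 28 counts in control 1 and 2. Traj7 had 37 and 38 counts with IFNα, against 10 and 49 in the controls, and Traj6 had 33 and 38, against 9 and 45. In each of these, control 2 was above both IFNα samples and control 1 far below them, so the groups overlapped. The median log2 ratio of control 2 to control 1 was 2.22 over the Traj members, against 0.01 over all tested genes. Relative to Trac, Traj counts were 13.8 and 11.5 per 100 Trac counts with IFNα, against 2.55 and 13.3 in the controls. That low level went with the low TEC and sense-intronic counts of control 1. The part of these in the result was not tested.

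The log2 ratio of summed Traj CPM was 0.56 over both controls (exact permutation p = 1), with 1.92 without control 2 and -0.12 without control 1. Among Traj members Traj3 had the smallest unadjusted p. It had 43 and 39 counts in IFNα 1 and 2, against 12 and 27 in control 1 and 2. Both IFNα samples were higher, and the log2 fold change was 1.14 (SE 0.45, unadjusted p = 0.0465, adjusted p = 0.434 in edgeR's quasi-likelihood test). Traj4, the next segment in the locus, had 28 and 27 counts, against 17 and 25, a log2 fold change of 0.46 (SE 0.38, adjusted p = 0.657). Traj2, the annotated member nearest to Trac, had 34 and 36 counts with IFNα, which lay between the 21 and 56 counts of control 1 and 2.

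Traj counts were lower with distance from Trac in every sample. The members lie 2620 to 50653 bases upstream of it, and the segment numbers rise with the distance. Spearman's rho between distance and count over the 40 members was -0.92 and -0.83 in IFNα 1 and 2, against -0.44 and -0.84 in control 1 and 2, where all points of a sample share its library and depth and have lengths that differ little. The 10 members nearest to Trac (Traj2 to Traj13) held 312 and 267 counts with IFNα, against 87 and 303 in the controls. The 10 farthest (Traj35 to Traj48) held 31 and 55 counts with IFNα, against 21 and 69 in the controls. In every sample the near segments held more counts than the far ones, and control 1, which had 165 Traj counts in all, was the lowest sample in both sets. The same measure per base gave -0.92 and -0.84 with IFNα, against -0.42 and -0.83 in the controls.

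**Figure D2:**
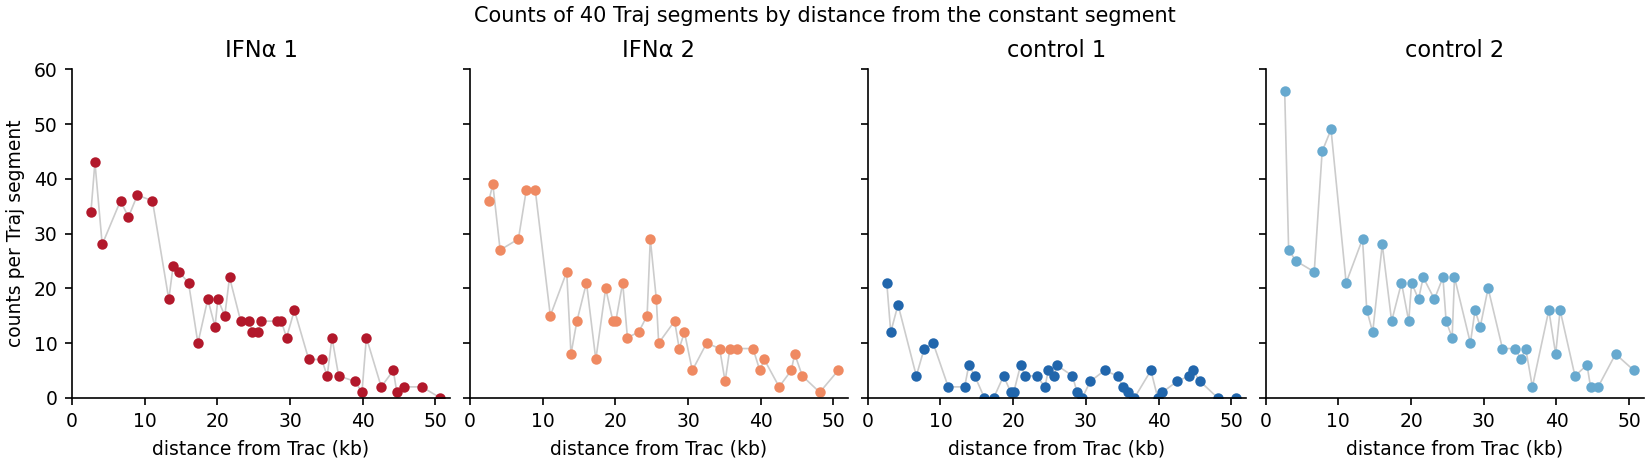
Each panel is 1 sample (IFNα 1, IFNα 2, control 1, control 2), with each point a Traj member, its distance from Trac in kilobases on the horizontal axis and its count on the vertical axis. Counts near Trac reached 43 and 39 in IFNα 1 and 2, against 21 and 56 in control 1 and 2, and the 10 farthest members had 0 to 16 counts.

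Summed beta joining segments were likewise lowest in control 1 and highest in control 2, with a smaller gap. The 13 Trbj members summed to 68.2 and 70.6 CPM in IFNα 1 and 2, against 42.5 and 82.3 CPM in control 1 and 2, and control 1 was lowest in 11 of 13. Trbj2-7 had 183 and 201 counts with IFNα, against 129 and 259 in the controls, and Trbj1-5 had 161 and 208, against 90 and 209. Trbj1-3 had 111 and 139 counts, against 62 and 164. Control 1 was lowest and control 2 highest in all 3 by count, while in CPM control 2 (11.9) lay between the IFNα samples (10.1 and 12.1) for Trbj1-5. The log2 fold changes were 0.06 (SE 0.32), 0.37 (SE 0.38) and 0.22 (SE 0.44). The log2 ratio of summed Trbj CPM was 0.15, with 0.71 without control 2 and -0.25 without control 1. Per 100 counts of Trbc1 and Trbc2 there were 9.62 and 9.53 Trbj counts with IFNα, against 3.67 and 10.7 in the controls.

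The 2 beta J clusters, each upstream of its own C segment, held close shares of the Trbj counts in 3 samples. Members of the Trbj1 cluster took 59.3% and 59.8% of Trbj counts in IFNα 1 and 2 (Wilson 95% intervals 56.4 to 62.2% and 57.0 to 62.5%), against 51.97% and 60.3% in control 1 and 2 (48.4 to 55.6% and 57.8 to 62.8%). Control 1 was the lowest here too, and its interval did not reach those of the other samples. The C segments were ordered the other way. Trbj1 over Trbj2 counts gave 1.46 and 1.49 with IFNα, against 1.08 and 1.52 in the controls. Trbc2 over Trbc1 counts gave 1.86 and 1.95, against 1.85 and 1.81. J counts are therefore not read here as use of a cluster, and the reason for the difference was not tested. Trbj1-1, shown among the sequences above, went the other way from its cluster. It had 7 and 3 counts with IFNα, against 18 and 16 in the controls, both lower with IFNα, with a log2 fold change of -1.66 (SE 0.59, unadjusted p = 0.0320, adjusted p = 0.380 in edgeR's quasi-likelihood test). Trbj2-3, with 74 and 93 counts against 58 and 71, was the Trbj member above both controls. Its log2 fold change was 0.44 (SE 0.24, adjusted p = 0.559).

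The D segments of the beta locus are a few bases long and rich in G, and are shown because they are the shortest members. Capitals mark runs of 3 or more G, and the segments lie at chr6:41533201-41533212 and chr6:41542163-41542176 on the plus strand.
Trbd1: GGGacaGGGGGc
Trbd2: GGGactGGGGGGGc
Trbd1 had 32 and 42 counts in IFNα 1 and 2, against 65 and 43 in control 1 and 2, with a log2 fold change of -0.48 (SE 0.34, adjusted p = 0.620 in edgeR's quasi-likelihood test). Trbd2 had 6 and 8 counts with IFNα, against 10 and 15 in the controls, and did not pass the filter. Both were lower with IFNα in every sample, by 1 count in the closest pair of Trbd1 samples and by 2 in that of Trbd2.

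Variable segments of the beta locus had a stable order of use. Trbv13-2 led in every sample, with 444 and 472 counts in IFNα 1 and 2, against 513 and 571 in control 1 and 2, and a log2 fold change of -0.17 (SE 0.13, adjusted p = 0.640). It took 12.03% and 10.7% of Trbv counts with IFNα (Wilson 95% intervals 11.02 to 13.1% and 9.86 to 11.7%), against 9.38% and 12.6% in the controls (8.63 to 10.2% and 11.7 to 13.6%). Control 1 was lowest and control 2 highest, so the groups overlapped. Trbv12-2 followed with 401 and 422 counts, against 446 and 408, then Trbv12-1 with 307 and 406, against 483 and 386. Trbv3 had 304 and 378 counts, against 477 and 394, and Trbv16 had 252 and 308, against 407 and 296. These 5 segments together took 46.3% and 45.2% of Trbv counts with IFNα, against 42.5% and 45.3% in the controls. Per kilobase Trbv13-2 also led, with 81.9 and 80.6 CPM with IFNα, against 87.2 and 95.7 CPM in the controls.

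The 3′ ends of the leading Trbv segments are shown because the D and J segments are joined there. Capitals mark the TGT codon of the conserved cysteine that opens the variable loop, found as TAT or TAC, any codon, then TGT or TGC. The ends lie on the plus strand at chr6:41121773-41121832 and chr6:41119305-41119364.
Trbv13-2: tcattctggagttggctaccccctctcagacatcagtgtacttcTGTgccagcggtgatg
Trbv12-2: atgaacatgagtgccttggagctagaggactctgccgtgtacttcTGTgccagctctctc
Trbv12-1, which lies upstream, differed from Trbv12-2 at 45 of 385 aligned bases, and every 100-base window of all 22 Trbv members was found in no other V segment.

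Trbv levels were lower with IFNα in most segments without passing the test. The 22 members summed to 232 and 255 CPM in IFNα 1 and 2, against 316 and 259 CPM in control 1 and 2, a log2 ratio of -0.24, with -0.088 without control 1 and -0.38 without control 2. With no filter 20 of 22 log2 fold changes were negative, and control 1 was the highest sample in 15 of 22, against 37.6% of all tested genes. Trbv19 had the smallest p of the 119 tested members. It had 162 and 198 counts with IFNα, against 315 and 267 in the controls, and both IFNα samples were below both controls. Its log2 fold change was -0.62 (SE 0.17, unadjusted p = 0.0119, adjusted p = 0.251 in edgeR's quasi-likelihood test). It was -0.48 without control 1 and -0.75 without control 2, both under the threshold of 1 in size. With the gene-length offset it was -0.39 (adjusted p = 0.276 in the same test). The fits without a control hold no spread between controls, so only their sizes are given. As a share of Trbv counts Trbv19 took 4.39% and 4.51% with IFNα (Wilson 95% intervals 3.77 to 5.10% and 3.93 to 5.16%), against 5.76% and 5.88% in the controls (5.17 to 6.41% and 5.23 to 6.60%). Its share too was below both controls. This share comes from the same counts by which Trbv19 was chosen, so it is no separate support.

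The mix of Trbv segments was compared between single samples by the share of counts that would have to change segment to turn one mix into the other. This distance was 5.30%, 5.41%, 5.78% and 7.72% for the pairs across the groups, 5.02% for the IFNα pair and 6.04% for the control pair, so distances across and within the groups overlapped. With 2 samples a group no test of it was made. Spearman's rho of Trbv shares over the 22 members was 0.95 to 0.98 for all pairs of samples. The effective number of segments, the exponential of the Shannon entropy of the shares, was 16.4 and 16.3 with IFNα, against 16.7 and 16.5 in the controls, and 6 or 7 segments held 50% of Trbv counts.

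**Figure D3:**
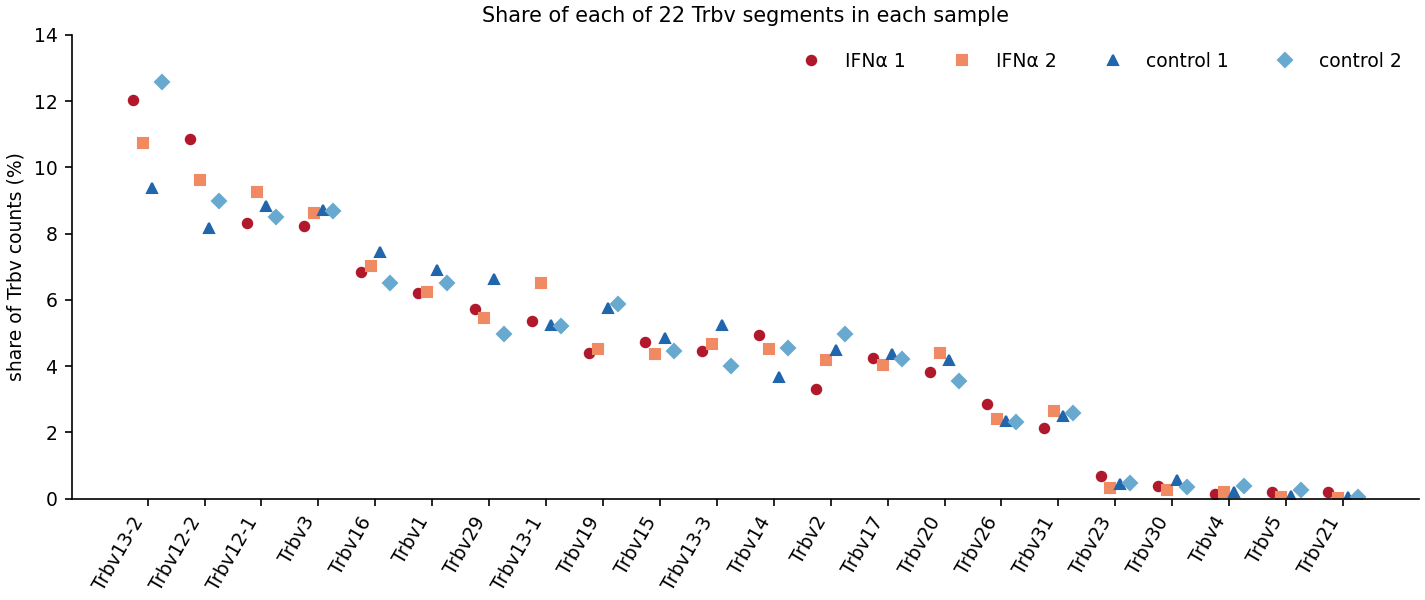
Points give the share of Trbv counts (%) taken by each of the 22 Trbv members in IFNα 1, IFNα 2, control 1 and control 2, ordered by mean share. Trbv13-2 led with 12.03 and 10.7% with IFNα, against 9.38 and 12.6% in the controls, and the last 5 segments each stayed under 1%.

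Alpha variable segments were many and low. The 72 Trav members summed to 83.6 and 82.3 CPM in IFNα 1 and 2, against 91.1 and 83.7 CPM in control 1 and 2, and no segment took more than 5.65% of Trav counts in any sample. Between 15 and 17 segments held 50% of the counts. Trav16n led over all samples, with 41 and 61 counts with IFNα, against 84 and 83 in the controls, a log2 fold change of -0.64 (SE 0.26, adjusted p = 0.449 in edgeR's quasi-likelihood test). Trav16 had 41 and 43 counts with IFNα, against 88 and 72 in the controls, a log2 fold change of -0.86 (SE 0.26, unadjusted p = 0.0170, adjusted p = 0.290). Both segments were below both controls. The 3′ ends of this pair, at chr14:53743646-53743705 and chr14:53351562-53351621, are shown because they are near-copies, with the cysteine codon in capitals.
Trav16: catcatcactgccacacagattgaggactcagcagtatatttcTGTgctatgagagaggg
Trav16n: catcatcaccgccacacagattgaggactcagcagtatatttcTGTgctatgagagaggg
Over 412 bases from the 3′ end they differed at 6, so reads could be split between them. Another relative, Trav16d-dv11, had 19 and 29 counts, against 27 and 21.

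The remaining Trav segments chosen by count or by p went in both directions. Trav3-3 had 55 and 74 counts with IFNα, against 64 and 71 in the controls, and Trav13-1 had 56 and 44, against 69 and 56. Trav14-1 had 59 and 36 counts, against 49 and 71. The groups overlapped in all 3, with log2 fold changes of 0.00, -0.24 and -0.25. Trav9-1 was higher with IFNα in both samples, with 33 and 38 counts against 14 and 20, a log2 fold change of 1.13 (SE 0.37, unadjusted p = 0.0234, adjusted p = 0.337 in edgeR's quasi-likelihood test). Its near-copy Trav9d-1, which differs at 2 of 337 bases, had 2 and 2 counts with IFNα, against 8 and 8 in the controls, the other direction. Trav7d-4 had 15 and 19 counts, against 9 and 10, with a log2 fold change of 0.90 (SE 0.45, adjusted p = 0.525), and differs from Trav7-4 at 2 of 451 bases.

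In 3 Trav segments a single sample or pair of samples held most of the counts. They were singled out after their values were seen. Trav7d-2 had 36 and 3 counts in IFNα 1 and 2, against 0 and 0 in the controls. Trav7n-6 had 18 and 2 counts, against 0 and 4, and Trav4n-4 had 16 and 0, against 15 and 0. IFNα 1 was high in all 3, and in Trav4n-4 control 1 was as high. Of their 100-base windows 0.420%, 0% and 0% were found in no other V segment, and Trav4n-4 is identical over 354 bases to Trav4d-4, which is listed at 0 in all samples.

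Segments of the alpha locus with little sequence of their own were mostly under the count threshold. Of 38 Trav segments under the count threshold, 32 had fewer than 10% of their 100-base windows unique among V segments, against 8 of 72 Trav members. The median summed count was 1 for the 40 Trav segments under 10% unique, 62.0 for the 50 from 10% to under 100%, and 62.5 for the 20 at 100%. A low count of such a segment cannot be told apart from reads that were not assigned. By the distance used for Trbv, the mix of Trav segments was 17.01 to 18.3% apart for pairs across the groups, 18.2% for the IFNα pair and 13.1% for the control pair, with no test made.

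**Figure D4:**
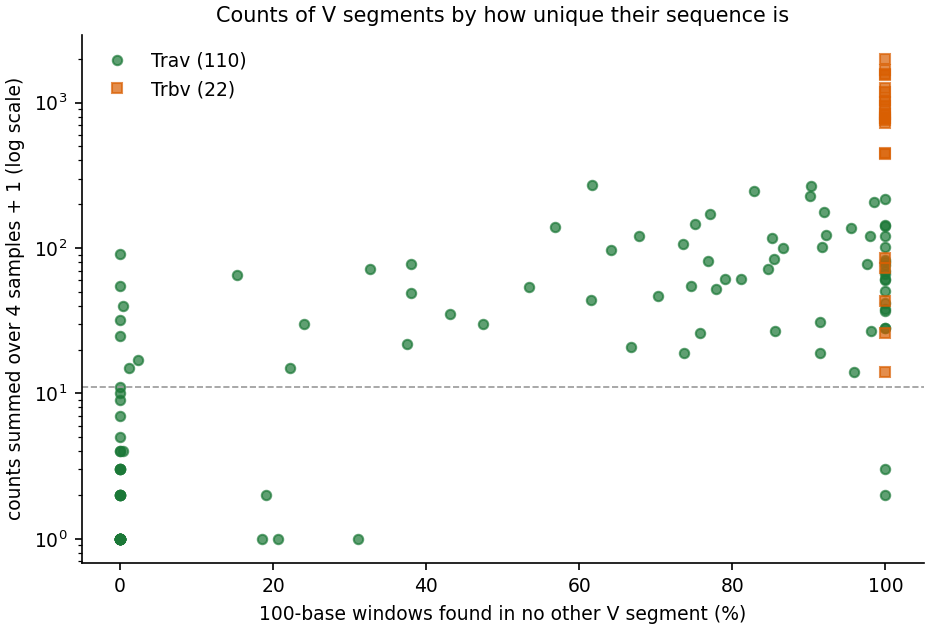
Points are the 110 Trav and 22 Trbv segments that are not pseudogenes, with the percentage of their 100-base windows found in no other V segment on the horizontal axis and their summed count plus 1 on a log vertical axis, and the dashed line at the threshold (10 counts, plus 1). All 22 Trbv segments sit at 100%, and 32 of the 38 Trav segments under the line sit under 10%.

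Gamma and delta segments had low levels in both groups. Trdc, the delta constant segment (chr14:54142851-54148868), had 44 and 70 counts in IFNα 1 and 2, against 44 and 56 in control 1 and 2, and a log2 fold change of 0.25 (SE 0.31, adjusted p = 0.758 in edgeR's quasi-likelihood test). Per kilobase it had 0.714 and 1.05 CPM, against 0.658 and 0.825 CPM, where Trac had 296 to 400 CPM. The gamma constant segments were Tcrg-C1 with 13 and 14 counts with IFNα, against 17 and 16 in the controls, Tcrg-C2 with 10 and 12, against 19 and 23, and Tcrg-C4 with 12 and 13, against 17 and 9. Of these Tcrg-C2 had the largest log2 fold change, -0.85 (SE 0.42, adjusted p = 0.522). Trdv1 had 9 and 12 counts with IFNα, against 1 and 5 in the controls, and did not pass the filter, nor did Trgv2 (2 and 12, against 10 and 8) and Tcrg-V1 (8 and 3, against 1 and 6). Summed, Trd members had 3.33 and 4.76 CPM, against 2.60 and 3.48 CPM (log2 ratio 0.41, two-sided exact permutation p = 0.667), and Trg members had 2.82 and 3.14 CPM, against 3.70 and 3.53 CPM (log2 ratio -0.28, p = 0.333 in the same exact test). Of 6 genes fixed as gamma delta T cell markers, Trdc among them, 3 were tested and 0 called. They summed to 6.34 and 7.08 CPM with IFNα, against 4.91 and 5.36 CPM in the controls, with Il17a at 1 to 3 counts per sample. Cd163l1 had 2.45 and 2.03 CPM, against 1.098 and 1.14 CPM (log2 fold change 0.995, SE 0.34, adjusted p = 0.359 in edgeR's quasi-likelihood test), and Sox13 had 0.627 and 0.407 CPM, against 0.925 and 0.684 CPM. Their part in the Trdc values was not tested.

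Segments of the known invariant receptors had low counts. Trav11 and Traj18 form the alpha chain of invariant natural killer T cells, and Trav1 and Traj33 that of MAIT cells. Trav11 had 0 and 2 counts in IFNα 1 and 2, against 0 and 1 in control 1 and 2, and was no member. Only 0.41% of its 100-base windows were found in no other V segment. Its closest copy, Trav11d, had 0 and 0 counts with IFNα, against 1 and 1 in the controls. The low Trav11 count thus cannot be told apart from reads that were not assigned. Traj18 had 13 and 14 counts with IFNα, against 1 and 14 in the controls, the same pattern as its neighbours in the locus. Of the 2 markers fixed for invariant natural killer T cells, Zbtb16 had 18 and 8 counts with IFNα, against 9 and 10 in the controls. Its log2 fold change was 0.53 (SE 0.60, adjusted p = 0.733 in edgeR's quasi-likelihood test). Klrb1c had 7 and 1 counts, against 7 and 10, and did not pass the filter. Trav1 had 9 and 20 counts, against 22 and 14, and Traj33 had 4 and 3, against 2 and 7. At the member threshold, Traj48 had 0 and 5 counts with IFNα, against 0 and 5 in the controls, and Trav6-6 had 2 and 1, against 4 and 3. Just outside it Traj44, Traj49, Traj59, Trav3d-3 and Trgj4 had 9 summed counts each.

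The calls for single segments depended on which control was used. Control 2 was above control 1 in 38 of 40 Traj and 11 of 13 Trbj members, and all 7 Traj members that were tested and above both controls had their lowest count in control 1. With control 2 left out 27 members were called higher (18 Traj, 4 Trbj, 4 Trav and 1 Trdv) and 1 lower (Trav16), where 6.40% and 1.77% of all genes tested in that fit were called. With control 1 left out 1 member, Trav7d-2, was called higher and 0 lower, where 1.99% and 0.667% of genes were. Each of these fits has a single control, which is assumed to vary as the IFNα samples do. Traj7 reached 1.96 and Trbj1-5 1.09 on the log2 scale without control 2, and -0.30 and -0.10 without control 1. Trav7d-2 was also the 1 member called without IFNα 2.

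**Figure D5:**
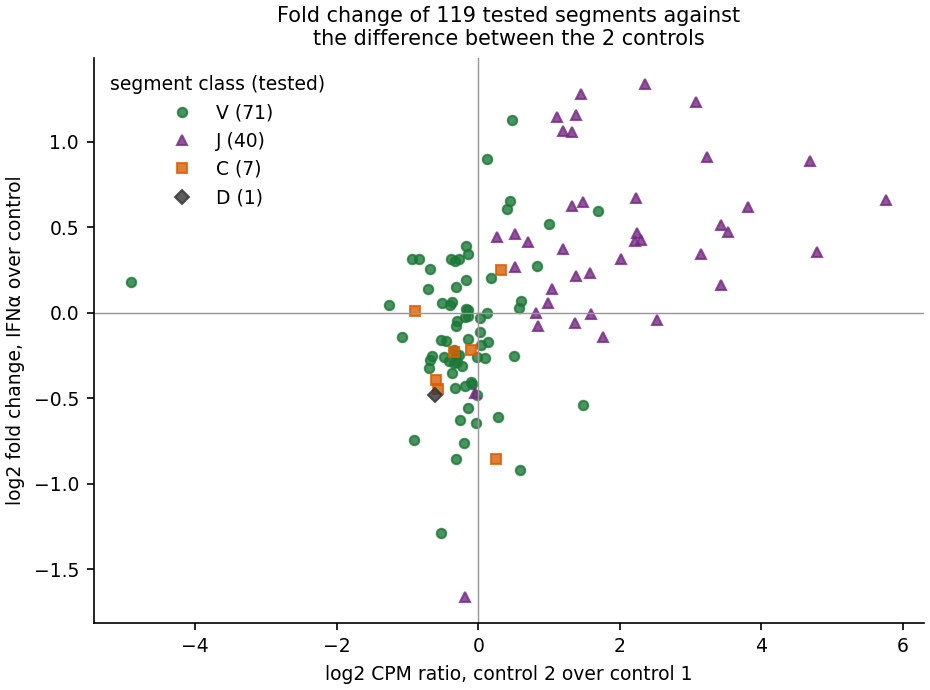
Points are the 119 tested members, with the log2 ratio of CPM plus 0.03 in control 2 to control 1 on the horizontal axis and the log2 fold change of IFNα over control on the vertical axis, coloured and shaped by class (71 V, 40 J, 7 C and 1 D). J segments spread to the right of 0, where control 2 is the higher control (38 of 40 Traj and 11 of 13 Trbj members, untested ones included), while Trac, Trbc1 and Trbc2 lie to the left with fold changes of -0.23 to -0.45.

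Genes that work with these segments also did not pass. The CD3 chains, which carry the receptor's signal, were all tested and 0 of 4 were called. Cd3d had 274 and 304 CPM in IFNα 1 and 2, against 435 and 272 CPM in control 1 and 2, and Cd3e had 276 and 268 CPM, against 274 and 277 CPM. Cd3g had 291 and 304 CPM, against 404 and 274 CPM. Cd247 had 160.1 and 173 CPM, against 189 and 154 CPM. Control 1 was highest for Cd3d, Cd3g and Cd247, as for the constant segments, and not for Cd3e. Of 12 recombination genes 10 were tested and 0 were called, with 0 counts of Rag1 and Rag2 in every sample. Dntt, which adds bases at the joints, had 2.38 and 1.68 CPM with IFNα, against 2.72 and 2.11 CPM in the controls. Prkdc, the kinase of end joining, had 135 and 128 CPM with IFNα, against 64.2 and 115 CPM in the controls, with control 1 lowest and a log2 fold change of 0.55 (SE 0.27, adjusted p = 0.525 in edgeR's quasi-likelihood test). Ptcra, the chain that stands in for alpha before it is rearranged, had 0 to 1 counts per sample.

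Markers of other cell types were mostly low. Cd8a had 1058 and 1078 CPM in IFNα 1 and 2, against 1051 and 968 CPM in control 1 and 2, and Cd4 had 0.753 and 0.290 CPM, against 0.636 and 0.798 CPM. The 4 CD4 T cell markers summed to 7.09 and 7.03 CPM with IFNα, against 5.66 and 7.69 CPM in the controls. Of these, 0 of 4 were called, and single markers went in both directions. Cd40lg had 4 and 6 counts with IFNα, against 19 and 12 in the controls (log2 fold change -1.54). Zbtb7b had 72 and 69 counts, against 62 and 57 (log2 fold change 0.32). Foxp3 had 25 and 41 counts with IFNα, which lay between the 6 and 52 counts of control 1 and 2. Of the B cell markers reported here Ms4a1 and Pax5 were at 0 to 1 counts per sample. Cd79b had 8.03 and 7.61 CPM with IFNα, against 16.2 and 12.4 CPM in the controls (adjusted p = 0.156), and Cd79a had 4.71 and 4.36 CPM, against 3.41 and 5.36 CPM. Cd22 had 0.627 and 1.05 CPM, against 0.520 and 0.684 CPM, and none of these was called. Of 5 myeloid markers 2 were tested and 1 fell, Lyz2, with 4.96 and 6.10 CPM, against 16.5 and 13.96 CPM (log2 fold change -1.46, SE 0.20, adjusted p = 0.0297 in edgeR's quasi-likelihood test). The summed myeloid level was 6.21 and 7.55 CPM with IFNα, against 17.97 and 15.95 CPM in the controls, and Lyz2 made up most of it. Csf1r had 0.816 and 0.987 CPM, against 0.636 and 1.20 CPM (log2 fold change -0.022), Adgre1 had 6 and 3 counts, against 0 and 4, Itgam had 1 and 5, against 12 and 7, and Cd14 was at 0 in the IFNα samples. Of 4 natural killer cell markers Ncr1 and Klra8 were at 0 to 1 counts, and Klrk1, which activated CD8+ T cells also express, had 62.6 and 63.6 CPM, against 23.9 and 37.1 CPM (adjusted p = 0.128). Klrb1c had 0.439 and 0.0581 CPM with IFNα, against 0.405 and 0.570 CPM in the controls, so the groups overlapped, and it did not pass the filter. The 4 markers summed to 63.1 and 63.6 CPM with IFNα, against 24.3 and 37.7 CPM in the controls, and Klrk1 made up most of it. The part of these cells in the segment values was not tested.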

How the data were processed

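RNA was isolated with Trizol, libraries were made with a NEBNext Ultra kit and sequenced on an Illumina HiSeq. The authors mapped reads with Hisat2 and deposited raw counts per gene, which were used as they are. The submitters' processing notes name HISAT2, Subread, featureCounts and mm9, while all 270 receptor segments lie where GENCODE M21 (GRCm38) puts them. Read length, strand setting and the treatment of multiply mapped reads are not given in the sources used here.

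Counts were tested in R 4.3.3 with edgeR 4.0.16: filterByExpr (minimum count 10, minimum total 15), TMM, and the robust quasi-likelihood fit of all 4 samples with no block, over 14417 genes. Calls used the study's thresholds, 0.05 for the Benjamini-Hochberg adjusted p and 1 for the size of the log2 fold change. On simulated counts of this comparison 50 of 50 genes at a log2 fold change of 2 and 39 of 50 at -1 were recovered at that adjusted p. The changed genes were drawn from those with a mean of at least 5 CPM. Only 26 members passed a filter at that level, so the recovery does not describe the lower segments. The simulated spread followed the level of a gene alone, and no sample was set apart as control 1 was. The fold threshold was not applied to this recovery. CPM use TMM-scaled totals. Locus sums were compared by an exact permutation test over the samples in R. Wilson intervals and Spearman's rho were computed with scipy 1.17.1.

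The members and gene lists were chosen with earlier results of these data known. Named segments were all C and D members, the 5 highest V and J of Tra, the 5 highest V and 3 highest J of Trb, Trg and Trd members, the 3 smallest p in each direction, invariant-receptor segments and those at the threshold. Alternatives were other scalings (RLE, upper quartile, total), filters, tests (DESeq2 1.42.0, limma-voom of limma 3.58.1, edgeR's exact test), a replicate block, a gene-length offset, each sample left out, and other member rules. Depth was 16096121 to 17676062 counts per sample. A marker gene of the B cell list is not reported here.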

Additional observations from a re-analysis of the deposited data

How the results depend on the processing

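The count of called segments was 0 higher and 0 lower under other scalings (RLE, upper quartile, totals), without a filter and with one at a mean of 5 CPM, in DESeq2, edgeR's exact test and limma-voom, with the gene-length offset, without the fold threshold and for members of at least 50 counts. Leaving out 1 sample gave 0 to 27 called higher and 0 to 1 called lower. The largest counts were without control 2, and Trav7d-2 alone was called without control 1 and without IFNα 2. The labels do not say whether replicate numbers pair the samples. The differences within the groups correlated at r = -0.31 over 10105 genes. That value cannot show whether they were paired, because control 1 stood apart from the other samples. The replicate block gave 0 and 0, and so did the crossed pairing, which was chosen after seeing the data.

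The summed level changed sign with constant segments left out, to a log2 ratio of 0.0905 for Tra and 0.0641 for Trg. The log2 fold changes of some named segments changed sign too, and the cause was not tested. With upper-quartile factors Tcrg-C4 had -0.0559, Trav3-3 -0.0642, Trbv12-2 -0.0486 and Trbj2-7 -0.0013. With total counts Tcrg-C4 had -0.0294, Trav3-3 -0.0479 and Trbv12-2 -0.0279. In limma-voom Trav3-3 had -0.00146 and Traj2 0.0944, and with the replicate block they had -0.00451 and 0.0527. With the length offset and no replicate block Trav13-1 had 0.0238, Trbv13-2 0.0485, Trbv12-1 0.0277, Traj2 0.0739 and Trav1 0.00435. With that offset and the replicate block Trav13-1 had 0.00526, Trbv13-2 0.076, Trbv12-1 0.0261 and Traj2 0.29.

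With each sample left out in turn, Traj7 ran from -0.30 to 1.96, Traj6 from -0.26 to 2.03, Traj2 from -0.59 to 0.80, Trbj2-7 from -0.35 to 0.64, Trbj1-5 from -0.097 to 1.09 and Trbj1-3 from -0.31 to 1.07. For these J segments the lowest value was without control 1 and the highest without control 2. Trbv16 ran from -0.48 to 0.00316, Trbv12-2 from -0.053 to 0.0978, Trav3-3 from -0.17 to 0.15, Trav14-1 from -0.71 to 0.11, Trav1 from -0.87 to 0.17, Trdc from -0.0537 to 0.51 and Tcrg-C4 from -0.38 to 0.55. Another 416 values of named segments kept direction and call, and 8 passed the thresholds without control 2.

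With 2 samples a group and most segments under 100 counts a sample, the absence of a call does not show that levels were equal. The handling of reads shared by near-copies limits single Trav values.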
